A study of Homo sapiens with 4 samples.

Results

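The genes described here encode potassium (K+) channels and their subunits, and were followed in BT549 cells, an established human triple-negative breast cancer (TNBC) cell line, after the cells had been sorted by flow cytometry on surface neuropilin-2 (NRP2). Members were the rows of the deposited count table whose names begin with KCN, continue with further letters and end in a number. This pattern matched 67 rows, of which 3 were left out because they lie in regions of chromosomes 11, 17 and 22 that were set aside. The remaining 64 genes, of 31681 in the table, all protein coding, are the members. The groups were 2 libraries of NRP2-high cells and 2 libraries of NRP2-low cells of this line, and the labels give no treatment, genotype or time that differs between them. All 4 libraries came from the same cell line, the gates of the sort are not given in the sources used here, and whether the 2 libraries of each population derive from different cultures is not stated. The p-values therefore reflect how far these libraries differed from each other, a variation that may be technical alone.

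K+ channels let potassium ions leave the cell along their gradient, which sets the resting membrane potential, ends electrical signals and contributes to the control of cell volume and, in many non-excitable cells, of proliferation. Voltage-gated pore subunits open on depolarization, and the silent subunits form no working channel alone but combine with other voltage-gated pore subunits and change their gating. Calcium- or sodium-activated channels open when these ions rise inside the cell, inward rectifiers pass current more readily into the cell than out of it, and the tandem-pore channels of the *KCNK* group carry background leak current. Auxiliary subunits, named *KCNAB*, *KCNE*, *KCNIP* and *KCNMB*, bind to pore subunits and alter their trafficking or kinetics. Many of these genes are best known from neurons, muscle and heart, and several have been studied in tumor cells.

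The libraries held between 18165923 and 20585102 counts, so that 3 counts, the upper limit when none is seen, correspond to 0.151 to 0.163 CPM (counts per 1e6 after TMM scaling). This limit covers counting error only. *NRP2* itself reached 2588 and 2839 counts in the NRP2-high samples against 195 and 166 in the NRP2-low samples, in the direction of the labels. Genes with names starting with MT- took up 6.92% and 9.16% of the NRP2-high libraries and 5.57% and 5.85% of the NRP2-low libraries. The mesenchymal marker *VIM* was counted between 23658 and 27183 times in each library, whereas *CDH1* and *EPCAM*, which mark epithelial cells, had at most 5 counts. Of the 5 epithelial markers, *KRT19* was higher and *KRT8* and *KRT18* were lower in NRP2-high cells, and the list summed to 12.1 to 14.4 CPM in NRP2-high and to 6.78 to 6.80 CPM in NRP2-low cells. The 4 immune markers matched summed to at most 0.464 CPM and the 2 endothelial markers matched to at most 0.722 CPM in any library. *LYZ* was at 0 in all libraries, and *PTPRC* had 4 and 6 counts in NRP2-high against 2 and 8 in NRP2-low libraries. *PECAM1* had 8 and 14 counts in NRP2-high against 1 and 1 in NRP2-low libraries. *VWF* had 0 and 0 against 1 and 1. Of 5 neuronal genes, listed because K+ channels are abundant in neurons, *SYT1* and *SNAP25* were higher and *MAP2* was lower in NRP2-high cells, while *RBFOX3* and *STMN2* had at most 2 counts. The neuronal list summed to 108 to 117 CPM in NRP2-high cells and to 185 to 186 CPM in NRP2-low cells, and the part of these genes in the results on K+ channels was not tested.

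Of the 64 K+ channel genes, 26 had enough counts for edgeR's default filter and were tested, and 15 of these differed between the populations at an adjusted p under 0.05. These 15 are 57.7% of the tested members, against 56.5% of all 15083 tested genes, so K+ channel genes were not called more often than genes at large. Of the 15, 4 were higher in NRP2-high cells (15.4% of the tested members, against 28.9% of all tested genes) and 11 were lower (42.3%, against 27.7%). Without NRP2-high replicate 1 the lower genes numbered 17 of 32 tested, where 29.2% of all genes were lower. The median log2 fold change was -0.49 over the 26 members and -0.01 over all tested genes. The values of NRP2-high and NRP2-low libraries did not overlap for 21 of the 26 members (6 higher, 15 lower), where 78.2% of all tested genes showed no overlap. The higher genes were *KCNMB4*, *KCNAB1*, *KCNQ5* and *KCNS1*, and the lower genes were *KCNIP1*, *KCNV1*, *KCNS2*, *KCNH3*, *KCNK3*, *KCNK6*, *KCNIP4*, *KCNG1*, *KCNMB3*, *KCNMA1* and *KCNK2*. Of these, *KCNV1*, *KCNH3* and *KCNK6* passed the filter through their NRP2-low libraries alone, and *KCNMB4* could pass only with its NRP2-high libraries. Under a stricter filter on low counts *KCNV1*, *KCNH3* and *KCNK6* were not tested. There, 4 of 20 tested members were higher (30.4% of all genes) and 9 were lower (30.1%). In bulk samples such as these, fewer cells that express a gene and less RNA of it per cell cannot be told apart.

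**Figure D1:**
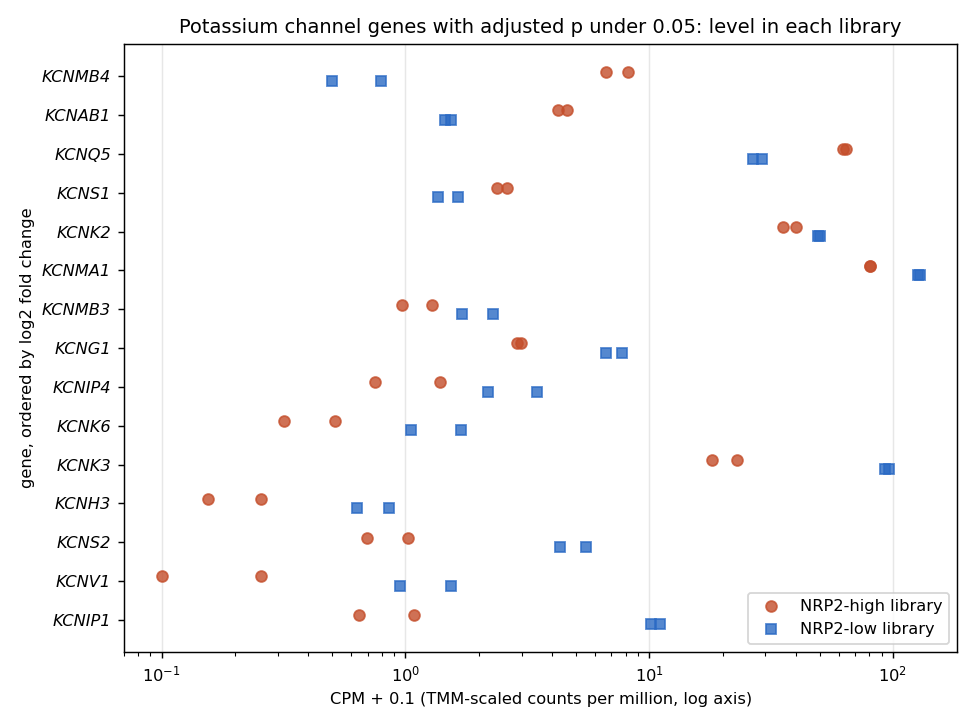
Level of each of the 15 K+ channel genes with an adjusted p under 0.05 in each library, on a log axis of CPM + 0.1, with circles for NRP2-high and squares for NRP2-low libraries. The circles and squares of a gene do not overlap, and *KCNMA1*, at 80.6 CPM in NRP2-high and 128 CPM in NRP2-low cells, has the highest levels in both populations, while the lowest mean is that of *KCNV1* in NRP2-high (0.0774 CPM) and of *KCNMB4* in NRP2-low cells (0.546 CPM).

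K+ channel expression was concentrated in a few genes. Levels of different genes were compared in TPM, which divides counts by gene length. A mean TPM of at least 1 over the 4 libraries was reached by 16 of the 64 members, and a mean of at least 10 by 5, among them *KCNK2* (39.3 TPM), *KCNK3* (33.4 TPM), *KCNQ5* (20.6 TPM) and *KCNMA1* (10.3 TPM). The 64 genes summed to 187 and 171 TPM in NRP2-high cells, below the 262 and 266 TPM of NRP2-low cells. The share of *KCNK3* in this sum was 6.82% and 5.32% in NRP2-high but 20.9% and 21.5% in NRP2-low libraries, whereas that of *KCNQ5* was 15.4% and 15.6% in NRP2-high but 4.94% and 5.28% in NRP2-low libraries. The order of abundance differed between the populations, with *KCNQ5* above *KCNK3* in both NRP2-high libraries (2.26 and 2.93 times its TPM) and below it in both NRP2-low libraries (0.236 and 0.246 times). The mean sum was 85.0 TPM lower in NRP2-high cells, of which *KCNK3* made up 45.0 TPM, *KCNK2* 15.1 TPM and *KCNIP1* 10.8 TPM, while *KCNQ5* was 14.2 TPM higher. These sums carry no TMM scaling, and no test was made of them.

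**Figure D2:**
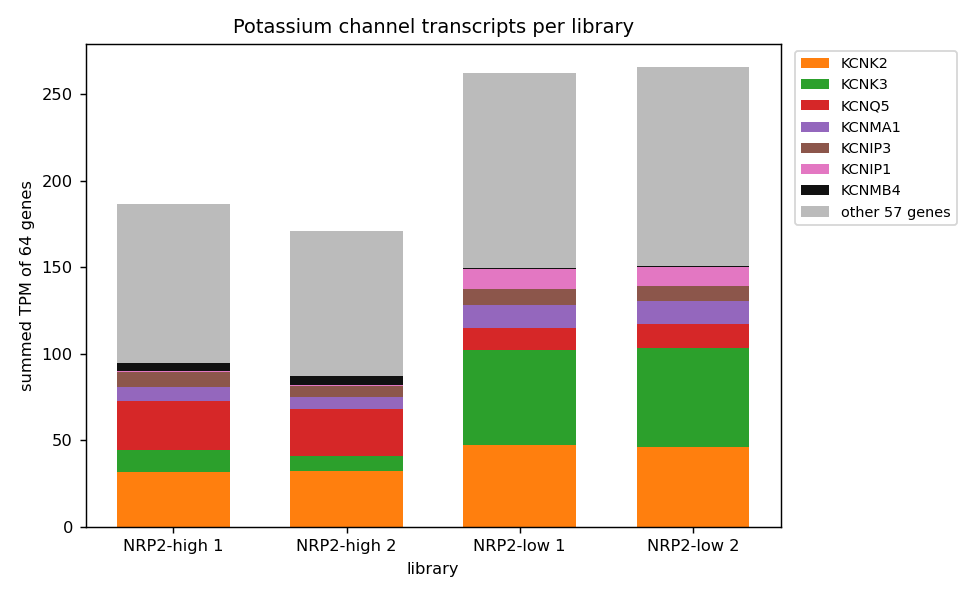
Summed TPM of the 64 K+ channel genes in each library, with the share of 7 genes in color and the other 57 in light gray. The bars reach 187 and 171 TPM in NRP2-high and 262 and 266 TPM in NRP2-low libraries, and of the colored segments that of *KCNK3* differs most in height between the populations.

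Among the voltage-gated pore subunits, 16 were members and 6 were tested, of which 1 was higher, 1 lower and 4 did not pass. Here and in the role groups below, few genes were tested. Among all tested genes, 28.9% were higher and 27.7% lower. *KCNQ5* encodes a channel of the KCNQ group, which carries the slow M-type current that dampens excitability in neurons. It had 1149 and 1247 counts in the NRP2-high samples against 531 and 544 in the NRP2-low samples. Both NRP2-high libraries lay far above both NRP2-low libraries, at 63.4 ± 1.26 CPM (SD, n = 2) against 27.8 ± 1.59 CPM (SD, n = 2). *KCNQ5* rose 2.28-fold, a log2 fold change of 1.19 (standard error 0.07, edgeR adjusted p = 1.9e-07). The gene (ENSG00000185760.15) spans positions 72621792 to 73198848 of chromosome 6 (hg38, plus strand). Its relative *KCNQ3* had at most 3 counts in any library.

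*KCNH3*, a neuronal channel gene of the ether-a-go-go group, fell by 2.53 on the log2 scale (standard error 0.62, edgeR adjusted p = 0.0051) from a mean of 7.25 counts over the 4 libraries, with a value of -3.42 without NRP2-high replicate 2. Its call was lost in 4 of 14 alternatives, in DESeq2 (adjusted p = 0.093), log2(TPM + 1) (0.052), log2(TPM + 0.1) (0.055) and log2(FPKM + 1) (0.095), and without NRP2-low replicate 1 it was not tested. The genes *KCNC4*, *KCND1* and *KCNH1*, the last of these also of the ether-a-go-go group, did not pass, with log2 fold changes of -0.57, 0.82 and -0.07. The value of *KCND1* was 0.35 without NRP2-high replicate 1 and 1.19, with a call (edgeR adjusted p = 0.038), without NRP2-high replicate 2.

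The silent subunits differed in both directions. Of 10 members 5 were tested, with 1 higher, 3 lower and 1 not passing. *KCNG1* had 51 and 56 counts in the NRP2-high samples against 130 and 144 in the NRP2-low samples. The levels of 2.83 ± 0.0795 CPM in NRP2-high and 7.09 ± 0.797 CPM in NRP2-low cells (SD, n = 2 each) did not overlap, and *KCNG1* fell by 1.32 on the log2 scale (standard error 0.18, edgeR adjusted p = 8.7e-05). It spans positions 51003656 to 51023129 of chromosome 20 (hg38, minus strand). *KCNS2* had 11 and 18 counts in the NRP2-high samples against 108 and 79 in the NRP2-low samples, so that both NRP2-low libraries were several times above either NRP2-high library. It fell by 2.64 on the log2 scale (standard error 0.28, edgeR adjusted p = 1.5e-05), from 4.81 ± 0.865 to 0.763 ± 0.233 CPM (SD, n = 2 each), and lies on chromosome 8 of hg38 from 98427022 to 98432148. *KCNV1*, on the same chromosome from 109963645 to 109975847, had 0 and 3 counts in the NRP2-high samples against 17 and 27 in the NRP2-low samples. The ratio of pooled counts over effective library sizes was 0.0699 (95% Clopper-Pearson interval 0.0139 to 0.218, counting error only). *KCNV1* passed the test (edgeR adjusted p = 0.0010), but its fitted log2 fold change of -3.74 (standard error 0.71) rests on these few counts and ran from -7.44, without NRP2-high replicate 2, to -2.82, without NRP2-high replicate 1, and the call was lost in log2(FPKM + 1) (adjusted p = 0.077).

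*KCNS1* moved the other way. It had 46 and 44 counts in the NRP2-high samples against 25 and 29 in the NRP2-low samples, 2.39 ± 0.166 against 1.40 ± 0.202 CPM (SD, n = 2 each). Its log2 fold change was 0.77 (standard error 0.26, edgeR adjusted p = 0.025), and the call was lost in 9 of 16 alternatives, among them without NRP2-high replicate 1 (adjusted p = 0.058), without NRP2-low replicate 1 (0.19), without NRP2-low replicate 2 (0.059) and in DESeq2 (0.24). *KCNG3*, with 45 and 56 counts against 52 and 63, did not pass (log2 fold change -0.15).

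**Figure D3:**
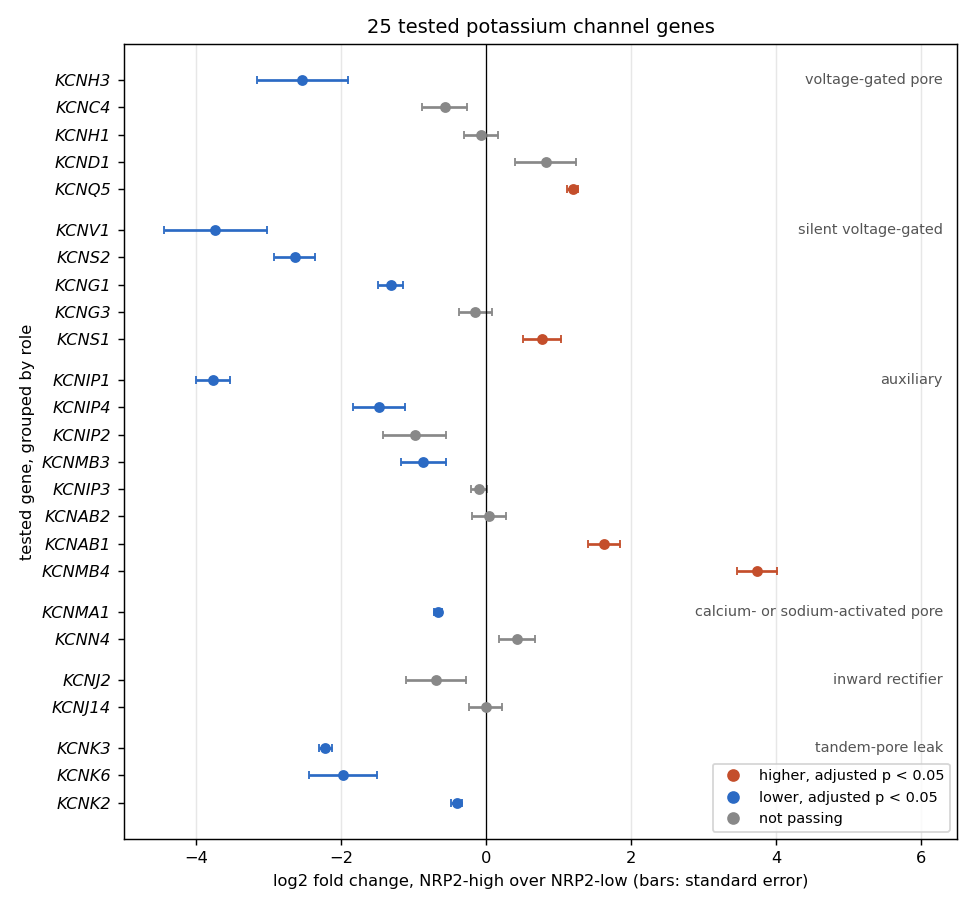
Log2 fold change of NRP2-high over NRP2-low for 25 of the 26 tested K+ channel genes, grouped by role, with bars for the standard error of the edgeR fit and color for the call. Lower genes outnumber higher ones by 11 to 4, the tandem-pore genes all lie below 0, and *KCNMB4* at 3.74 and *KCNIP1* at -3.77 lie at the ends.

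Among the calcium-activated channels, the BK pore subunit gene was lower and the gene of one of its partners was higher in NRP2-high cells. *KCNMA1* encodes the pore of the large-conductance BK channel, which opens on both calcium and depolarization, and the *KCNMB* genes encode its beta subunits. *KCNMA1* reached 1479 and 1566 counts in the NRP2-high samples against 2530 and 2417 in the NRP2-low samples. The libraries of a population agreed closely, at 80.6 ± 0.190 CPM in NRP2-high and 128 ± 1.02 CPM in NRP2-low cells (SD, n = 2 each), and *KCNMA1* fell 1.58-fold (log2 fold change -0.66, standard error 0.05, edgeR adjusted p = 1.7e-06). The gene spans positions 76869601 to 77637758 of chromosome 10 (hg38, minus strand). The call was lost against a fold change of 1.5 (adjusted p = 0.12).

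*KCNMB4*, which encodes the beta subunit of BK channels known mainly from neurons, had 120 and 157 counts in the NRP2-high samples against only 8 and 13 in the NRP2-low samples. This was 7.31 ± 1.11 CPM against 0.546 ± 0.205 CPM (SD, n = 2 each), with no overlap. *KCNMB4* rose 13.4-fold, a log2 fold change of 3.74 (standard error 0.28, edgeR adjusted p = 8.7e-07), with values of 3.38 to 4.17 when single libraries were left out. It spans positions 70366276 to 70430686 of chromosome 12 (hg38, plus strand). Per length, *KCNMB4* was at 0.593 and 0.733 of the TPM of *KCNMA1* in NRP2-high cells and at 0.0231 and 0.0393 of it in NRP2-low cells. These ratios depend on the lengths used, 4874 bases for *KCNMB4* and 35644 bases for *KCNMA1*. In CPM, without length, the NRP2-high means were 7.31 for *KCNMB4* and 80.6 for *KCNMA1*. *KCNMB3*, another beta subunit gene, had 16 and 23 counts in the NRP2-high samples against 32 and 41 in the NRP2-low samples. It was called lower (log2 fold change -0.87, standard error 0.31, edgeR adjusted p = 0.035), but the call was lost in 8 of 16 alternatives, among them without NRP2-high replicate 1 (adjusted p = 0.12), without NRP2-low replicate 2 (0.27) and in DESeq2 (0.26). The strand setting of the counting is not given in the sources used here, so reads of overlapping genes on opposite strands may not be told apart. Of the exon bases of *KCNMB3* in GENCODE v44, 38.0% are shared with *PIK3CA* on the opposite strand, which had between 1092 and 1439 counts and a log2 fold change of 0.34. *KCNMB1*, the smooth muscle beta subunit gene, was at 0 in all 4 libraries.

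The small- and intermediate-conductance channels of the *KCNN* group, which are gated by calcium through calmodulin, were at low levels. *KCNN4*, the intermediate-conductance channel gene studied in lymphocytes and in several tumors, had 58 and 52 counts in the NRP2-high samples against 35 and 49 in the NRP2-low samples and did not pass (log2 fold change 0.42, standard error 0.25, edgeR adjusted p = 0.18). *KCNN1* had 7 and 11 counts against 4 and 1 and was not tested, *KCNN3* had at most 2 counts, and *KCNN2* was at 0 in all libraries. The sodium-activated channel genes were as scarce, with 8 and 8 counts against 2 and 3 for *KCNT2* and a single count in all for *KCNT1*.

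The tandem-pore leak channels held the member with the smallest adjusted p. All 3 tested genes of 9 members were lower in NRP2-high cells, where 27.7% of all tested genes were lower. Of the 3, *KCNK6* passed the filter on low counts through its NRP2-low libraries alone and was not tested under the stricter filter. *KCNK3* encodes an acid-sensitive leak channel that sets the resting potential in neurons, heart and pulmonary artery. It reached 418 and 350 counts in the NRP2-high samples against 1848 and 1819 in the NRP2-low samples, and thus stood over 4 times higher in each NRP2-low library than in either NRP2-high library. *KCNK3* fell by 2.22 on the log2 scale (standard error 0.09, edgeR adjusted p = 9.7e-09), from 94.7 ± 2.76 CPM to 20.4 ± 3.32 CPM (SD, n = 2 each). The gene (ENSG00000171303.6) spans positions 26692690 to 26729255 of chromosome 2 (hg38, plus strand).

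*KCNK2* encodes a leak channel that responds to membrane stretch and fatty acids. It had 648 and 775 counts in the NRP2-high samples against 1002 and 929 in the NRP2-low samples, 37.6 ± 3.32 against 49.8 ± 0.658 CPM (SD, n = 2 each). The groups did not overlap and *KCNK2* fell by 0.40 on the log2 scale (standard error 0.08, edgeR adjusted p = 0.0011), a change of 1.32-fold that did not pass against a fold change of 1.5. It spans positions 215005775 to 215236020 of chromosome 1 (hg38, plus strand). *KCNK6* had 4 and 8 counts in the NRP2-high samples against 19 and 30 in the NRP2-low samples, and fell by 1.97 on the log2 scale (standard error 0.47, edgeR adjusted p = 0.0040). Its call was lost in 4 of 15 alternatives, without NRP2-low replicate 2 (adjusted p = 0.065), in log2(TPM + 1) (0.070), in log2(TPM + 0.1) (0.074) and in log2(FPKM + 1) (0.095). Of the 6 leak channel genes not tested, *KCNK1* had 0 and 0 counts in the NRP2-high samples against 4 and 5 in the NRP2-low samples. It was at least 2.92-fold lower in NRP2-high cells when up to 3 counts are allowed over that group and the NRP2-low counts are taken as exact. *KCNK5* had 5 and 3 counts in NRP2-high cells but none in the NRP2-low libraries, which puts NRP2-high at least 2.74-fold higher by the same reckoning. This reckoning leaves out the counting error of the group that has counts. *KCNK15* had 3 and 1 counts against 5 and 13.

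The auxiliary subunits numbered 14, with 8 tested, 2 higher, 3 lower and 3 not passing. The *KCNIP* genes encode calcium-binding proteins that attach to the A-type channels of the *KCND* group and raise their surface expression. *KCNIP1* had 10 and 19 counts in the NRP2-high samples against 219 and 189 in the NRP2-low samples. It was at 0.762 ± 0.308 CPM in NRP2-high and at 10.5 ± 0.672 CPM in NRP2-low cells (SD, n = 2 each), with no overlap. *KCNIP1* fell by 3.77 on the log2 scale (standard error 0.23, edgeR adjusted p = 2.0e-07), a 13.6-fold difference that is the largest decrease among the tested members in this fit, and leaving out single libraries gave values from -4.26 to -3.41. It spans positions 170353487 to 170735935 of chromosome 5 (hg38, plus strand), and *KCNMB1*, at 0 in every library, lies within that span on the opposite strand.

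*KCNIP4* had 12 and 25 counts in the NRP2-high samples against 67 and 39 in the NRP2-low samples, and both populations spread widely. It fell by 1.47 on the log2 scale (standard error 0.36, edgeR adjusted p = 0.0048), and the call was lost in 4 of 16 alternatives, without NRP2-low replicate 1 (adjusted p = 0.061), in log2(TPM + 1) (0.069), in log2(TPM + 0.1) (0.078) and in log2(FPKM + 1) (0.063). In GENCODE v44, 38.5% of its exon bases are shared with *PACRGL* on the opposite strand, which had 192 and 195 counts against 273 and 261 and a log2 fold change of -0.43. *KCNIP2*, with 8 and 12 counts against 27 and 14, did not pass (log2 fold change -0.99, edgeR adjusted p = 0.072), with a call with no filter on low counts and without NRP2-low replicate 2. *KCNIP3* encodes a protein also known as a calcium-dependent transcriptional repressor. It had 357 and 304 counts in the NRP2-high samples against 380 and 348 in the NRP2-low samples. In NRP2-low cells *KCNIP1* was more abundant per length (11.5 against 8.77 TPM). In NRP2-high cells *KCNIP3* was the most abundant of the group, at 7.42 TPM. Its groups overlapped and it did not pass (log2 fold change -0.10, standard error 0.11, edgeR adjusted p = 0.49), with a call only without NRP2-high replicate 1 (adjusted p = 0.036). The *KCND* pore genes themselves were scarce, with 24 and 14 counts in the NRP2-high samples against 10 and 12 in the NRP2-low samples for *KCND1* and at most 7 counts for *KCND3*.

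The *KCNAB* genes encode cytoplasmic beta subunits of voltage-gated channels that resemble oxidoreductases. *KCNAB1* had 83 and 80 counts in the NRP2-high samples against 27 in each NRP2-low sample. It rose 3.09-fold, from 1.40 ± 0.0562 to 4.32 ± 0.277 CPM (SD, n = 2 each), a log2 fold change of 1.63 (standard error 0.22, edgeR adjusted p = 9.5e-05). The gene spans positions 156037701 to 156538545 of chromosome 3 (hg38, plus strand). Its paralog *KCNAB2* had 46 and 53 counts against 59 and 40, with overlapping groups and a log2 fold change of 0.04. These beta subunits are best known to bind channels of the *KCNA* group, of which the member *KCNA7* had at most 2 counts. The *KCNE* genes, single-pass subunits of *KCNQ* and other channels, had at most 4 counts in any library except *KCNE5*, which had 6 and 1 counts against 11 and 8 and was not tested.

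None of the inward rectifier genes was called in the main edgeR test, also at an unadjusted p under 0.05. *KCNJ12*, not tested there, was called lower in DESeq2 and, by edgeR, with no filter on low counts and without NRP2-high replicate 1, NRP2-high replicate 2 or NRP2-low replicate 1. Of 8 members, *KCNJ14* and *KCNJ2* were tested and did not pass, with log2 fold changes of -0.01 and -0.69 (edgeR adjusted p = 0.98 and 0.18). *KCNJ12* had 1 and 4 counts in the NRP2-high samples against 9 and 25 in the NRP2-low samples and was not tested, and since near-identical copies of this gene exist, its counts are uncertain. *KCNJ8*, which forms ATP-sensitive channels with the product of *ABCC9*, had 0 and 0 counts against 5 and 2. It was at least 2.27-fold lower in NRP2-high cells when up to 3 counts are allowed over that group and the NRP2-low counts are taken as exact. *ABCC9* had 3 and 8 counts in the NRP2-high samples against 1 and 0 in the NRP2-low samples.

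In all, 38 of the 64 members were not tested, 25 of them with fewer than 5 counts in every library, where the depth was too low to detect a difference. Of the 13 with 5 or more counts in some library, the values of *KCNH7*, *KCNV2* and *KCND3* remain to be given. *KCNH7*, a neuronal gene of the ether-a-go-go group, had 0 and 0 counts in the NRP2-high samples against 5 and 10 in the NRP2-low samples. By the same reckoning, with the NRP2-low counts taken as exact, *KCNH7* was at least 4.87-fold lower in NRP2-high cells. It shares 189 exon bases in GENCODE v44 with *GCA* on the opposite strand, which had 4 and 7 counts in the NRP2-high samples against 66 and 86 in the NRP2-low samples. *KCNV2* had 2 and 1 counts against 8 and 2, and *KCND3* had 3 and 7 against 6 and 7.

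The called members lie on 11 chromosomes, and their differences were set beside those of their genomic neighbours. The median log2 fold change of tested genes that start within 5 Mb of a called member lay between -0.27 and 0.52 over the 15 members. For 7 of the 15 it had the sign of the member's own value and for 8 the opposite sign. Around *KCNMB4*, 38 neighbours had a median of -0.25 against 3.74 for the gene itself, and around *KCNIP1*, 34 neighbours had 0.11 against -3.77. The 69 neighbours of *KCNK3* had a median of -0.07 against -2.22. *KCNK2*, at -0.40, lay among 46 neighbours with a median of 0.52, and *KCNQ5*, at 1.19, among 28 with 0.27.

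**Figure D4:**
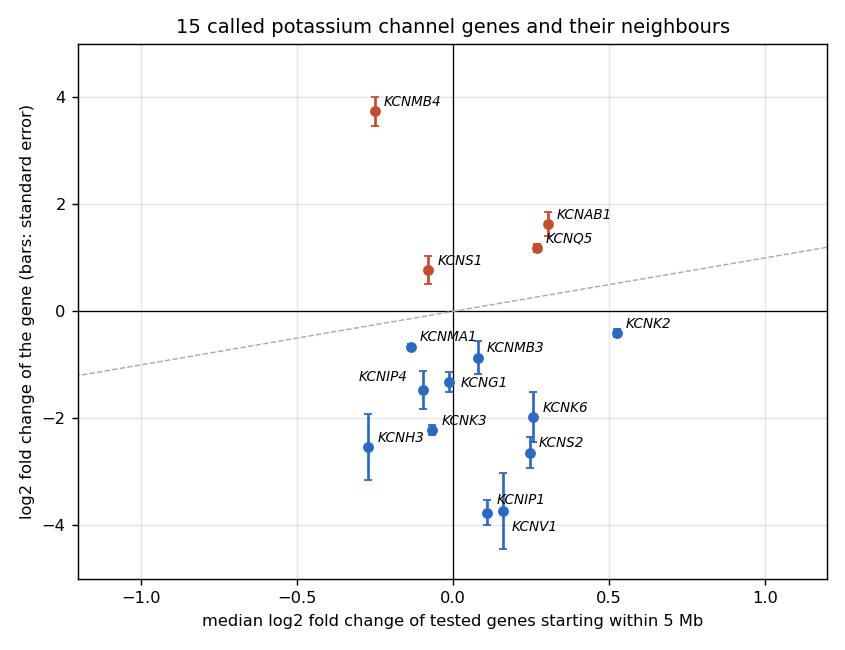
Log2 fold change of each of the 15 called K+ channel genes (vertical axis, bars for the standard error) against the median log2 fold change of tested genes starting within 5 Mb (horizontal axis), with a dashed line where both would be equal. The medians span -0.27 to 0.52, while the genes span -3.77 to 3.74.

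Potassium is also moved by pumps, cotransporters and channels outside the KCN names, and by proteins that bind K+ channels. Of 50 such genes listed, 37 matched a row outside the regions left out, 20 of these were tested, and 5 had higher and 7 had lower levels in NRP2-high cells (25.0% and 35.0%, against 28.9% and 27.7% of all tested genes). Without NRP2-high replicate 1 the higher genes numbered 8 of 20 (30.6% of all genes), and without NRP2-low replicate 2 the lower genes numbered 4 of 20 (19.8% of all genes). Their median log2 fold change was -0.17. *SLC12A2*, which encodes the sodium, potassium and chloride cotransporter that brings K+ into the cell, had 3121 and 3048 counts in the NRP2-high samples against 1362 and 1223 in the NRP2-low samples, and rose by a log2 fold change of 1.29 (standard error 0.06, edgeR adjusted p = 2.5e-08). *SLC12A7*, which encodes a cotransporter that carries K+ and chloride out, had 222 and 229 counts in the NRP2-high samples against 416 and 386 in the NRP2-low samples, and fell by 0.79 on the log2 scale (standard error 0.10, edgeR adjusted p = 4.6e-05).

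*ATP1B1*, which encodes a beta subunit of the sodium and potassium pump, had 719 and 815 counts in the NRP2-high samples against 516 and 470 in the NRP2-low samples, and rose by a log2 fold change of 0.67 (standard error 0.08, edgeR adjusted p = 3.0e-05). *ATP1B3*, another beta subunit gene, did not pass, at 0.12. The call of *ATP1B1* was lost against 1.5-fold (adjusted p = 0.20). *SLC9A7*, an exchanger gene of the Golgi, rose by a log2 fold change of 0.62 (edgeR adjusted p = 0.00011), and its call was lost against 1.5-fold (0.52), in log2(TPM + 1) (0.099) and in log2(TPM + 0.1) (0.094). *HCN2*, which encodes a channel opened by hyperpolarization and cyclic nucleotides, had 43 and 40 counts in the NRP2-high samples against 113 and 136 in the NRP2-low samples and fell by 1.55 on the log2 scale (standard error 0.21, edgeR adjusted p = 7.5e-05). *SLC24A1*, a K+-dependent sodium and calcium exchanger gene, fell by 0.67 (edgeR adjusted p = 0.0065), and its call was lost in 6 of 16 alternatives, among them without NRP2-low replicate 1 (adjusted p = 0.098) and in DESeq2 (0.065).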

How the data were processed

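RNA from 4 sorted BT549 samples was sequenced after strand-specific, polyA-selected library preparation starting with 250 ng of total RNA. Read pairs were mapped by the authors with STAR 2.5.3a (hg38), featureCounts 1.5.2 then gave fragments over exons of each gene at a mapping quality above 20, and the deposited counts are neither normalized nor pooled. The annotation release is not given in the sources used here. The deposited TPM equal counts per gene length brought to 1 common total, and the deposited FPKM equal counts per length and per total count, both checked on the values.

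All genes were tested in R 4.3.3 with the quasi-likelihood F test of edgeR 4.0.16 (no covariates, TMM factors, filterByExpr at its defaults, Benjamini-Hochberg adjusted p under 0.05 over 15083 genes). The standard error is the absolute log2 fold change divided by √F, and CPM are counts per effective library size. The scripts were tested on simulated data. Alternatives were DESeq2 1.42.0, limma-voom (limma 3.58.1), RLE factors, no MT- genes, other filters, an adjusted p under 0.01, a test against 1.5-fold, a replicate block, limma on log2(TPM + 1), log2(TPM + 0.1) and log2(FPKM + 1), and each library left out.

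The members, gene lists and tests were chosen with earlier results of these data known. Named genes are every called member, with full values for up to 16 with the largest changes and a mean of at least 10 counts (14 qualified), other tested members from a mean of 200 counts, untested members from 5 counts in a library, and the 4 partner genes with the smallest adjusted p in each direction. Other members, markers and overlapping genes were named after their values were seen. Some genes that the rule names count in the totals but are not reported here. Exon overlaps are from GENCODE v44, and promoters from RefSeq tables of GRCh38.p14.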

Additional observations from a re-analysis of the deposited data

How the results depend on the processing

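K+ channel genes numbered 4 higher and 11 lower in the main test, with the values below under the alternatives run. With no filter on low counts 17 of 62 were lower (14.7% of all genes), *KCNH7*, *KCNIP2*, *KCNJ12*, *KCNK1* and *KCNK15* being among those added, and 6 were higher (15.4% of all genes). In log2(TPM + 1) 7 of 44 were lower (15.4% of all genes) and in log2(FPKM + 1) 7 of 27 (20.7%). Leaving out 1 library at a time gave 3 to 5 higher and 10 to 17 lower genes of 28 to 32 tested, with 21.2% to 30.6% of all genes higher and 19.5% to 29.2% lower. Of the partner genes, 5 higher and 7 lower in the main test, 2 were higher and 3 lower against 1.5-fold (9.55% and 9.04% of all genes), 3 were higher in log2(TPM + 1) and in log2(TPM + 0.1) (9.24% and 9.48%), 4 were lower in DESeq2 (16.9%), and 4 to 8 were higher and 4 to 8 lower without 1 library at a time. The replicate block gave 4 higher and 11 lower K+ channel genes and 5 higher and 8 lower partner genes, with 29.9% of all genes higher and 29.0% lower. The correlation between same-numbered libraries of their deviations from the population means was -0.01. Whether same-numbered libraries share a culture or sort cannot be told from this value. No gene with a call in the main test changed direction under any alternative run. Calls of *KCNIP1*, *KCNMB4*, *KCNAB1*, *KCNQ5*, *KCNK3*, *KCNG1* and *KCNS2* held in all 16 alternatives, and those of *KCNS1* and *KCNMB3* were lost in 9 and 8. The pseudocount shrinks the change of low genes in TPM and FPKM. Among all genes, higher genes were 51.0% of the calls in the main test and 37.5% to 41.0% in TPM and FPKM, where the median log2 fold change of all genes was -0.10, -0.15 and -0.06, so that decreases there are set against a lower middle. Counts under about 20 limit *KCNV1*, *KCNH3* and *KCNK6*.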

Other observations

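RefSeq promoter windows, from 250 bases before to 50 after the start that RefSeq gives a gene, were matched by symbol for 47 of the 64 K+ channel genes, 19 of them tested. In 14 of the 47 the RefSeq start lay over 300 bases from the gene start in the count table, *KCNAB1* (82847 bases) and *KCNMB3* (7111 bases) being the called genes among them, so these windows are those of another start. The 47 windows were rich in G and C, with a median GC content of 67.0% against 58.3% over 27305 promoters. Their median number of CpG dinucleotides was 23 against 14. The 27305 promoters were not limited to protein-coding genes, whereas all members are protein coding. The median CpG number was 24 over the tested members and 22.5 over those not tested. Called genes lay at both ends of this range. *KCNMA1* and *KCNIP4* had 54 and 47 CpG dinucleotides, whereas *KCNK2* and *KCNIP1* had 5 and 6. The GLI consensus GACCACCCA, looked for on both strands because the study concerns GLI1, was in none of the 47 windows and in 0.249% of all promoters, which says only that these letters are not in these windows. The TATA box core TATAAA was in 4 of the 47 and in 12.0% of all promoters.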
